A study of Homo sapiens with 12 samples.

Results

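HL-60 cells treated for 36 h with 112.7 pM duocarmycin SA (DSA), a dose at about the IC50 of this line, were compared with HL-60 controls. The comparison rests on 4 of the 12 RNA sequencing libraries of the series, namely the 2 labelled low DSA and the 2 labelled control of HL-60 cells, chosen by their titles. The controls carry the label no treatment, and the study's methods speak of vehicle. All HL-60 cells grew in IMDM with 20% heat-inactivated serum. The same line at 500 pM DSA (2 libraries) and Molm-14 cells at 0 and 11.1 pM DSA (2 libraries each) served for tests of where the response differed. Molm-14 is another acute myeloid leukaemia line, grown in RPMI with 10% serum. Its 2 libraries at 100 pM DSA entered only the filter on low counts, the scaling and the shared estimate of the spread. No source used here says that the 2 libraries of a group came from separate cultures, so p-values measure the spread between libraries, which may be technical. HL-60 is a single established line, and a line is not a sample of patients.

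DSA is an antitumour antibiotic that binds the minor groove of DNA and alkylates adenine at N3, which blocks polymerases and can end in strand breaks. HL-60 is a promyelocytic line that lacks functional p53 and carries extra copies of MYC, and it is widely used because several agents push it to mature towards granulocyte-like or macrophage-like cells. Promyelocytes fill azurophil granules with proteases and peroxidase, and as they mature they stop making these, gain integrins and the oxidase, and leave the cell cycle.

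Totals of expected counts lay between 21632970 and 63927449 per library, and both treated libraries were shallower than both controls. Abundance is given in CPM, counts relative to the library size after scaling by TMM factors, and genes were tested with the quasi-likelihood model of edgeR over all 12 libraries with Benjamini-Hochberg adjustment. The pairs of values are those of replicates 1 and 2, and the figure after ± is the standard error of the fitted log2 change. "Rose" and "fell" are used only of genes with an adjusted p under 0.05, and members said to go against their list were picked after their values were seen. The share of counts from mitochondrial genes was 2.22% and 2.47% in the controls and 3.68% and 3.76% at 112.7 pM. The cells carried the markers of their line, in that MPO, the peroxidase of azurophil granules, stood at 14800.3 and 14723 CPM in the controls and 11384 and 11743 CPM at 112.7 pM and all 8 promyelocyte markers were detected.

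At 112.7 pM DSA, 878 of 17366 genes tested were called higher and 74 lower, where called means more than a 2-fold change that passed the adjusted p of 0.05. These are 5.06% and 0.426% of the genes. The libraries of the 2 groups did not overlap in 872 of the 878 and in all 74, so lack of overlap sets no called gene apart. By the adjusted p alone, 3426 genes (19.7%) rose and 3865 (22.3%) fell, and these are the shares against which the counts of gene groups below are read. The count of falls over 2-fold was 15 by DESeq2, 12 where the mean count had to reach 50, 120 with no filter on low counts and 46 without control replicate 1. The median log2 fold change of genes that passed was 0.55 among those that rose and -0.31 among those that fell, while the median over all genes was 0.0053.

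Large increases lay among genes of low abundance. Of the 2910 genes with a mean of 10 to 50 counts over the 4 libraries, 13% were called higher and 1.55% lower, and their median log2 fold change was 0.26. Of the 6579 genes with 500 to 5000 counts, 35 (0.532%) were called higher and 2 lower, with a median of -0.076. Among the 1631 genes above 5000 counts, MT-RNR1, the small ribosomal RNA of mitochondria, was the gene called higher and BCAT1 the gene called lower. MT-RNR1, named after its values were seen, had 388 CPM in both controls and 894 and 746 CPM at 112.7 pM. The filter on low counts took all 6 groups, so genes scarce in the controls could enter through a group where they are high. That favours increases at low counts and in lists of scarce genes, and its part was not tested. Filtered and fitted alone, the 4 libraries gave 800 genes called higher and 68 lower. Protein-coding genes made up 702 of the increases, 5.23% of the 13413 tested, and long non-coding RNAs 119, or 5.24% of 2269. In bulk RNA, more cells of a type and more RNA per cell cannot be told apart.

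**Figure D1:**
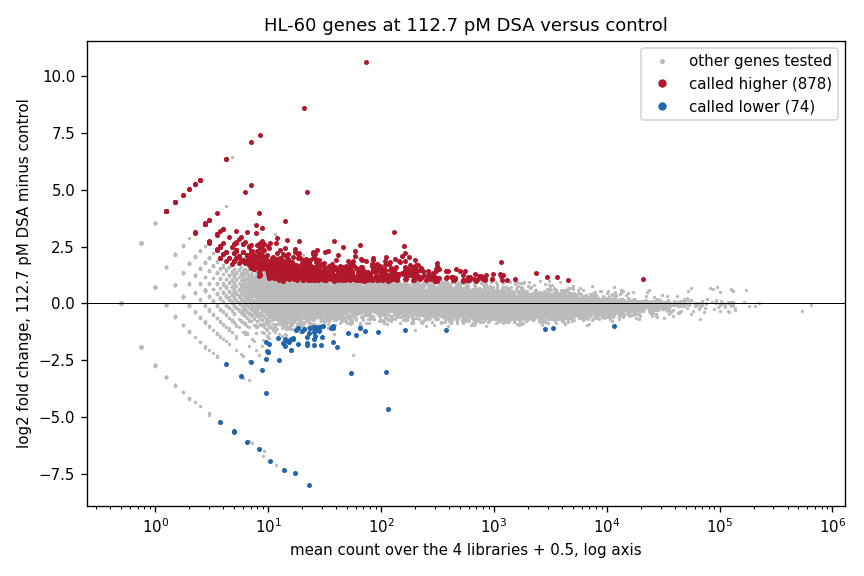
Each point is a gene, with its mean count over the 4 HL-60 libraries on a log axis and its log2 fold change at 112.7 pM DSA versus control on the vertical axis. The 878 genes called higher (red) crowd at low counts, and the 74 called lower (blue) are few above a mean of 50 counts.

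Changes also moved with the base composition of the transcripts. Across 10797 protein-coding genes that averaged 50 or more counts, Spearman's rho between the log2 fold change and the GC content of the longest transcript was 0.567, a description over genes that share the same 4 libraries. Of 5 bins of like size, the bin of lowest GC content (29.2 to 40.2%) had a median log2 fold change of -0.32, and 73.3% of its genes fell. In the bin of highest GC content (57.5 to 73.5%) the median was 0.13, and 43.9% of genes rose. Both treated libraries showed the slope. The controls also differed from each other along this axis (rho 0.373 between GC content and replicate 2 minus replicate 1), but with medians of 0.030 and -0.030 in the lowest bin. In Molm-14 cells at 11.1 pM DSA the same relation had a rho of -0.059. A fit added after the data were seen took each library's trend over GC content out as an offset, and 3403 genes (19.6%) were then higher and 3027 (17.4%) lower by the adjusted p. Of the genes called with a fold over 2, 720 of the 878 higher and 47 of the 74 lower kept their call. Whether the slope is in the cells or in the libraries was not tested, and the offset removes both.

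**Figure D2:**
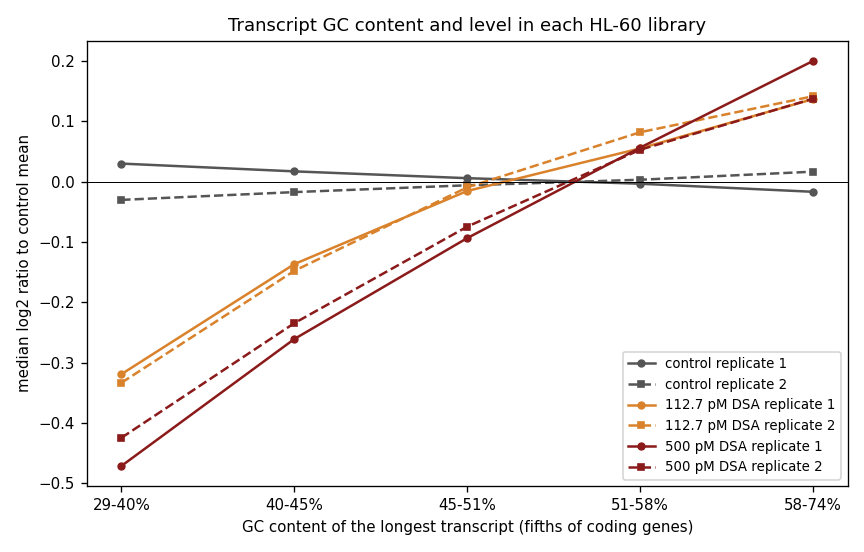
Protein-coding genes were split into 5 bins by transcript GC content, and the points give the median log2 ratio of each HL-60 library to the control mean. Both libraries at 112.7 pM run from between -0.33 and -0.32 in the lowest bin to 0.14 in the highest, while the controls stay within 0.030 of 0.

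Genes were ranked among those called with a symbol, 50 or more counts on average and libraries that did not overlap. The 12 largest increases were those of ANXA2, CLU, FFAR2, SDC1, PRR5L, ITGA2B, CPXM1, CERCAM, CCNA1, SIGLEC17P, GAS2L1 and IL17RE. Their log2 fold changes ran from 1.89 to 2.54, and with the GC offset from 1.75 to 2.62. ANXA2, a calcium-dependent membrane-binding protein that pairs with S100A10, led the list. It had 1.39 and 1.63 CPM in the controls and 9.12 and 8.82 CPM at 112.7 pM (chr15:60347134-60402883, hg38). Treated values lay far above the controls in both libraries, where the rule required them to lie outside (log2 change 2.54 ± 0.11, adjusted p = 9.82e-11 by edgeR). Reads of ANXA2 can also match its pseudogenes. CLU, the extracellular chaperone clusterin, stood at 0.682 and 0.607 CPM in the controls and 3.02 and 3.28 CPM at 112.7 pM (log2 change 2.30 ± 0.19, adjusted p = 5.04e-08). Its 27 to 104 counts per library make the fold coarse.

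Of these genes FFAR2, SDC1, ITGA2B and IL17RE encode proteins of the cell surface. FFAR2, the short-chain fatty acid receptor of neutrophils, had 1.77 and 1.88 CPM in the controls and 8.94 and 8.35 CPM at 112.7 pM (log2 change 2.23 ± 0.11, adjusted p = 3.33e-10). SDC1, a heparan sulphate proteoglycan, had 0.809 and 0.639 CPM in the controls and 3.43 and 2.68 CPM at 112.7 pM, and ITGA2B, the platelet integrin alpha chain, had 1.49 and 1.25 CPM in the controls and 6.32 and 5.10 CPM at 112.7 pM. For both the treated libraries lay above the controls, as the rule required. IL17RE, a receptor chain for interleukin 17C, rose from 2.30 and 2.83 CPM to 8.94 and 10.3 CPM (log2 change 1.89 ± 0.14, adjusted p = 1.20e-08).

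CCNA1, the cyclin A of meiosis and of myeloid leukaemia cells, rose from 1.74 and 1.66 CPM to 6.86 and 6.52 CPM (log2 change 1.97 ± 0.12, adjusted p = 2.62e-09). PRR5L, a partner of the mTORC2 kinase complex, was at 1.95 and 1.80 CPM in the controls and 7.72 and 7.97 CPM at 112.7 pM. CPXM1, a secreted carboxypeptidase-like protein, was at 2.02 and 2.28 CPM in the controls and 9.84 and 8.35 CPM at 112.7 pM, and CERCAM, an adhesion protein, was at 0.935 and 1.15 CPM in the controls and 3.75 and 4.598 CPM at 112.7 pM. GAS2L1, which links actin to microtubules, rose by 1.92 ± 0.17 on the log2 scale.

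**Figure D3:**
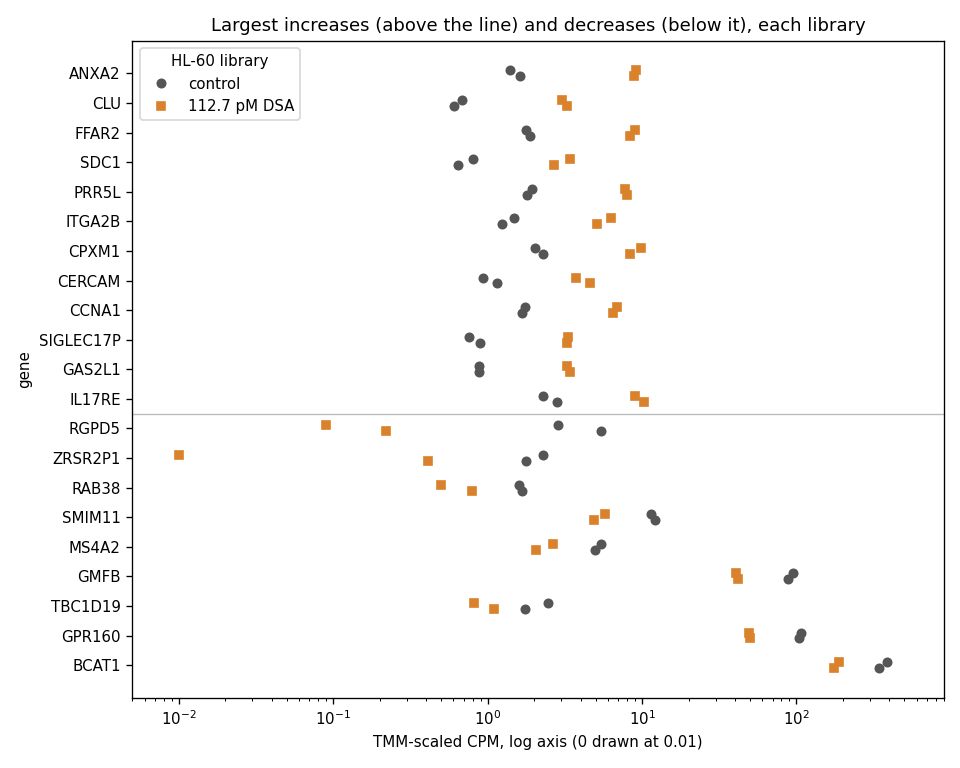
Every library's TMM-scaled CPM (log axis) is drawn for the 12 largest increases and the 9 decreases that met the same rule, with controls as circles and 112.7 pM DSA as squares. The rule took only genes whose treated libraries lay outside the range of the controls. The decreases at the top of the lower block rest on few treated counts. A value of 0 is drawn at 0.01.

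Only 9 genes met the same rule among the decreases. The 3 abundant ones were BCAT1, GPR160 and GMFB. BCAT1, the cytosolic aminotransferase of branched-chain amino acids, fell from 388 and 344 CPM to 189 and 175 CPM (log2 change -1.01 ± 0.067, adjusted p = 5.45e-09). GPR160, an orphan receptor, fell from 107 and 104 CPM to 48.9 and 50.2 CPM (log2 change -1.09 ± 0.064, adjusted p = 1.48e-09). GMFB, which acts on branched actin filaments, fell from 94.5 and 87.6 CPM to 40.6 and 42.1 CPM (log2 change -1.13 ± 0.071, adjusted p = 3.30e-09). With the GC offset their log2 fold changes were -0.66, -0.83 and -0.65, still lower but under 2-fold.

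MS4A2, the beta chain of the high-affinity IgE receptor of mast cells and basophils, fell from 5.46 and 4.95 CPM to 2.66 and 2.05 CPM (log2 change -1.16 ± 0.19, adjusted p = 7.97e-05). RAB38, a small GTPase of lysosome-related organelles, had 63 and 104 counts in the controls and 11 and 25 at 112.7 pM (log2 change -1.30 ± 0.40, adjusted p = 0.0142, lost without control replicate 2 or low DSA replicate 1, with p up to 0.121). TBC1D19, a member of the Rab GTPase-activating family, had 98 and 110 counts in the controls against 18 and 35 (log2 change -1.10 ± 0.28, adjusted p = 0.00385). Each of these values rests on far fewer counts than that of BCAT1. With the GC offset the log2 changes were -0.84 for MS4A2 and -0.79 for TBC1D19, under 2-fold, and -1.28 for RAB38. RGPD5, ZRSR2P1 and SMIM11 had log2 fold changes of -4.63, -3.07 and -1.17, but each has near-identical copies elsewhere in the genome between which RSEM divides reads, so their values are uncertain. LUZP6, which lies within the MTPN transcription unit and whose reads may be shared with it, had 32 and 59 counts in the controls and 0 in both treated libraries. Against a floor of 3 counts per library it was at least 7.62-fold lower.

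Among non-coding genes with a symbol, SIGLEC17P, BCAN-AS1, LINC03040, ITGB2-AS1 and GVINP1 had the largest increases and ZRSR2P1 the sole decrease that met the rule. SIGLEC17P, a pseudogene of the sialic acid-binding lectins of myeloid cells, was at 0.758 and 0.894 CPM in the controls and 3.29 and 3.28 CPM at 112.7 pM. GVINP1, a pseudogene of an interferon-inducible GTPase, was at 1.41 and 1.309 CPM in the controls and 3.11 and 3.31 CPM at 112.7 pM (log2 change 1.25 ± 0.17, adjusted p = 1.69e-05). ITGB2-AS1 had 32 and 77 counts in the controls and 54 and 83 at 112.7 pM (log2 change 1.26 ± 0.22, adjusted p = 1.93e-04). It runs antisense to ITGB2, which rose too, and as no source names the strand setting of the counting, reads of the pair cannot be told apart. BCAN-AS1 and LINC03040 rose by 1.66 and 1.30 on the log2 scale.

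Genes of mature myeloid cells were mostly higher, whereas several products of the promyelocyte fell. Of the receptors and oxidase subunits of mature granulocytes, 15 of 18 rose, 1 fell and 2 did not pass, with a median log2 fold change of 0.65. CYBB, the catalytic subunit of the phagocyte oxidase, rose from 139 and 131 CPM to 202 and 205 CPM (log2 change 0.59 ± 0.038, adjusted p = 4.18e-09). NCF4, a cytosolic subunit of the same enzyme, rose from 126 and 122 CPM to 194 and 198 CPM. ITGAM, the CD11b chain by which granulocytic maturation of HL-60 cells is commonly followed, rose from 3.87 and 3.77 CPM to 10.5 and 9.83 CPM (log2 change 1.41 ± 0.10, adjusted p = 7.20e-09). ITGB2, its partner chain, rose by 0.44 ± 0.030 on the log2 scale. For all 4 genes the treated libraries lay above both controls, which their choice by smallest p favours. Against the list fell CSF3R, with a log2 change of -0.12.

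The next group holds genes of monocytes and macrophages. 15 of 23 rose, 0 fell and 8 did not pass, and the median was 0.80. CD68, a glycoprotein of macrophage lysosomes, went from 13.2 and 13.1 CPM to 29.7 and 30.5 CPM (log2 change 1.20 ± 0.057, adjusted p = 1.81e-10). APOC1, an apolipoprotein of macrophages, went from 5.41 and 4.82 CPM to 14.7 CPM in both (log2 change 1.54 ± 0.10, adjusted p = 2.93e-09). TYROBP and FCER1G, adaptor chains of activating receptors, rose by 0.61 and 0.58 on the log2 scale. Of the specific and gelatinase granule proteins, made at later stages than azurophil proteins, 9 of 16 failed the filter on low counts. Of the rest 4 of 7 rose, 0 fell and 3 did not pass. CHI3L1, a chitinase-like protein, rose from 14.7 and 15.6 CPM to 27.3 and 30.04 CPM (log2 change 0.93 ± 0.088, adjusted p = 2.58e-07).

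Azurophil granule genes were split, in that 4 of 14 rose, 6 fell and 4 did not pass. PRTN3, proteinase 3, fell from 1818 and 2074 CPM to 1205 and 1201 CPM (log2 change -0.69 ± 0.051, adjusted p = 1.80e-08). ELANE, neutrophil elastase, fell from 377 and 403 CPM to 280.2 and 289.7 CPM (log2 change -0.45 ± 0.047, adjusted p = 7.07e-07), and MS4A3, a membrane protein of promyelocytes, from 111 and 108 CPM to 79.5 and 75.2 CPM. MPO fell by less (log2 change -0.35 ± 0.045, adjusted p = 6.61e-06). In the other direction SERPINB1, the cytosolic inhibitor of these proteases, rose from 19.8 and 18.1 CPM to 28 and 29.2 CPM (log2 change 0.60 ± 0.063, adjusted p = 7.97e-07). Against these, BPI, RNASE2 and CTSG, named after their values were seen, rose by 0.56, 0.50 and 0.11. Of the 8 promyelocyte markers, 3 rose and 4 fell, with a median of -0.049. Their summed level was 17793 and 18005 CPM in the controls and 13819 and 14192 CPM at 112.7 pM. MPO made up most of this sum and of its fall.

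Lysosomal genes were mostly higher. 22 of 30 rose, 2 fell and 6 did not pass, and the median was 0.34. GRN, progranulin, rose from 106 and 103 CPM to 177 and 181 CPM (log2 change 0.77 ± 0.041, adjusted p = 5.28e-10). ATP6AP1, an accessory subunit of the proton pump, rose from 61.5 and 64 CPM to 98.1 and 97.5 CPM, and CTSZ, a cathepsin, from 11.8 and 14 CPM to 26.7 and 25.9 CPM. Against the list fell LAMP2 and LIPA, with log2 changes of -0.26 and -0.28. Transcription factors of the myeloid lineage showed no common direction (7 of 23 rose, 4 fell and 12 did not pass, 5 higher and 6 lower with the offset). ID3, an inhibitor of helix-loop-helix factors, rose by 2.17 ± 0.26 on the log2 scale from 0.278 and 0.287 CPM. MYB, which keeps progenitors immature, fell by 0.26 on that scale, from 312 and 298 CPM to 259 and 250.4 CPM (adjusted p = 9.61e-06 by edgeR), RUNX1, a factor of definitive haematopoiesis, fell too (log2 change -0.31 ± 0.048, adjusted p = 5.13e-05) and RUNX2 rose (log2 change 0.36 ± 0.054, adjusted p = 4.20e-05).

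Interferon-stimulated genes, which cells switch on when interferons bind their receptors, were mostly higher. Of 37 tested, 28 rose, 2 fell and 7 did not pass, and the median log2 fold change was 0.71. Promoter sequences (RefSeq, GRCh38.p14) matched 28 of the 37 genes by symbol, under the 80% set for a check over the list, so that check is void and the promoters are shown as examples. The motif searched was GAAA, 2 bases of any kind and GAAA again, the core of the interferon-stimulated response element, on both strands in the 250 bases before to 50 after a start. It was in 3.57% of the 35116 promoters of the table, and a match is a description of the letters, not of binding. The 250 bases before the start of the 3 matched members with the smallest p that held the motif, OAS3, BST2 and PARP9, are printed because these genes are among those with the clearest rises. They read 5' to 3' on the strand of the gene, with the motif, or its reverse complement, in capitals.
BST2, chr19:17405631-17405880, minus strand: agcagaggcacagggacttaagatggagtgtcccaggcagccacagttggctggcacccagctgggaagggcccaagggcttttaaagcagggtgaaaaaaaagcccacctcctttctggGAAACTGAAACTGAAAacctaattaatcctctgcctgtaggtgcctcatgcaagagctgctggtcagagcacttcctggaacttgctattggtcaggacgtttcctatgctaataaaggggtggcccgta
OAS3, chr12:112938224-112938473, plus strand: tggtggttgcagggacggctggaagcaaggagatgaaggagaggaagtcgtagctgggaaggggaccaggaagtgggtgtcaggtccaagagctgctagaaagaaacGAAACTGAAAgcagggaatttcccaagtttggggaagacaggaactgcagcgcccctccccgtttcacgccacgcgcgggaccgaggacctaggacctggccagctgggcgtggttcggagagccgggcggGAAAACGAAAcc
PARP9, chr3:122564301-122564550, minus strand: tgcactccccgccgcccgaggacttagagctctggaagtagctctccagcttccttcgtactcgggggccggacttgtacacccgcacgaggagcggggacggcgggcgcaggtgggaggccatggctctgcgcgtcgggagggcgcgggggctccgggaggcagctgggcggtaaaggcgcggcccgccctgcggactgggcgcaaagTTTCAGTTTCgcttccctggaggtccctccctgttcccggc

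In BST2 the 2 matches overlap at 130 to 115 bases before the start, in OAS3 they begin 143 and 12 bases before it, and PARP9 has its match 41 bases before it on the opposite strand. BST2, which tethers budding virus, was at 11.5 and 11.9 CPM in the controls and 22.3 and 24.2 CPM at 112.7 pM (log2 change 0.996 ± 0.059, adjusted p = 1.64e-09). OAS3, a sensor of double-stranded RNA, was at 15.3 and 14.2 CPM in the controls and 30.4 and 31.7 CPM at 112.7 pM (log2 change 1.08 ± 0.065, adjusted p = 1.86e-09). TRIM22, an antiviral ubiquitin ligase, was at 4.32 and 3.91 CPM in the controls and 9.34 and 9.23 CPM at 112.7 pM (log2 change 1.19 ± 0.084, adjusted p = 1.07e-08), and IFI16, a sensor of DNA, was at 10.03 and 10.3 CPM in the controls and 19 and 18.7 CPM at 112.7 pM (log2 change 0.88 ± 0.068, adjusted p = 2.44e-08). In all 4 the treated libraries stood above the controls, which their choice by smallest p favours. Their log2 fold changes with the GC offset lay between 0.87 and 1.53. With the GC offset no member of the list was lower. PARP9, named for its promoter after its values were seen, rose by 0.98 ± 0.11 on the log2 scale.

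Antigen presentation by MHC class I went the same way, in that 13 of 16 rose, 0 fell and 3 did not pass, with a median of 0.32. PSMB9, an immunoproteasome subunit induced by interferon, rose from 16 and 15.5 CPM to 29.97 and 33.9 CPM (log2 change 1.03 ± 0.071, adjusted p = 8.53e-09). HLA-B and HLA-C rose by 0.32 and 0.33 on the log2 scale, and as reads of class I genes can match several loci their division is uncertain. PSMB8 rose by 0.32 ± 0.036. For class II, 4 of 11 rose, 0 fell and 7 did not pass. CD74, the invariant chain, rose from 11.3 and 12.1 CPM to 22.6 and 22.3 CPM (log2 change 0.93 ± 0.064, adjusted p = 8.04e-09), and HLA-DMA, HLA-DPB1 and HLA-DPA1 rose from means of 1.53, 2.04 and 0.213 CPM to 4.18, 4.40 and 0.775 CPM.

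Of 31 targets of NF-kB and inflammatory genes, 11 rose, 2 fell and 18 did not pass. CCL5, a chemokine for lymphocytes and monocytes, rose from 18.3 and 19.8 CPM to 45.8 and 48.8 CPM (log2 change 1.309 ± 0.061, adjusted p = 1.81e-10). CCL2, a monocyte chemokine, rose from 107 and 95.2 CPM to 146 and 172 CPM, NFKB2, the p100 precursor, from 9.98 and 9.45 CPM to 17 and 16.8 CPM, and TNFAIP2 by 0.45 ± 0.041 on the log2 scale. Against the list fell REL and NFKBIA, with log2 changes of -0.50 and -0.15. Of the immediate early genes fewer passed (9 of 31 rose, 0 fell and 22 did not pass), and the 4 with the smallest p were DUSP4, FOSL2, FOSL1 and ATF3. DUSP4, a phosphatase of MAP kinases, rose from 2.22 and 2.54 CPM to 6.05 and 5.83 CPM (log2 change 1.30 ± 0.13, adjusted p = 4.44e-07). FOSL2, FOSL1 and ATF3 rose by 0.47, 0.56 and 0.62. With the GC offset 7 of the list were higher and 3 lower.

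Annexins and S100 proteins, calcium-binding families of membrane and cytoskeleton, included ANXA2 and had a median log2 fold change of 0.89. In this group 19 of 23 rose, 0 fell and 4 did not pass. S100A10, the partner of ANXA2, rose from 14.9 and 14.6 CPM to 33.6 and 36 CPM (log2 change 1.24 ± 0.061, adjusted p = 2.28e-10). S100A4 rose from 60.01 and 58.1 CPM to 117 and 116 CPM (log2 change 0.98 ± 0.046, adjusted p = 1.81e-10) and S100A6 from 15.2 and 14.9 CPM to 31.4 and 25.8 CPM. Both partners of the ANXA2 and S100A10 pair had treated values above every control. The ranking rule required this of ANXA2, and the choice by smallest p favours it for S100A10.

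Genes of actin and intermediate filaments followed (13 of 28 rose, 3 fell and 12 did not pass). TPM4, a tropomyosin, rose from 53.6 and 54 CPM to 121 and 118 CPM (log2 change 1.15 ± 0.034, adjusted p = 6.24e-13), and VIM, vimentin, from 37.6 and 41.4 CPM to 102 and 100.1 CPM (log2 change 1.35 ± 0.047, adjusted p = 4.35e-12). FLNA and ZYX, a filamin and a protein of focal adhesions, rose by 0.31 and 0.33. Among semaphorins, plexins and neuropilins, guidance ligands and receptors also used by immune cells, 16 of 24 rose, 0 fell and 8 did not pass, and the median was 0.59. PLXND1 rose from 63.9 and 65.1 CPM to 144 and 147 CPM (log2 change 1.17 ± 0.036, adjusted p = 6.24e-13), and PLXNB2 from 27.9 and 28.4 CPM to 59.1 and 59.96 CPM (log2 change 1.08 ± 0.044, adjusted p = 5.49e-11). PLXNC1 and SEMA4D rose by 1.43 and 0.50.

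Matrix genes rose or did not pass, with a single fall (12 of 28 rose, 1 fell and 15 did not pass). LAMC1, a laminin chain, rose from 11.1 and 11.2 CPM to 25.2 and 24.6 CPM (log2 change 1.16 ± 0.055, adjusted p = 1.81e-10). AGRN and HSPG2, heparan sulphate proteoglycans of basement membranes, rose from 24 and 25.2 CPM to 51.1 and 49.5 CPM and from 12.6 and 14 CPM to 29 and 27.6 CPM. TIMP2, an inhibitor of metalloproteinases, rose from 20.1 CPM in both to 39.2 and 39 CPM. Against the list fell COL5A2, with a log2 change of -1.25. THBS1, thrombospondin 1, was near the limit of detection, with 2 and 8 counts in the controls and 4 and 13 at 112.7 pM (log2 change 1.65 ± 0.55, adjusted p = 0.0233, lost without control replicate 1 or low DSA replicate 2, with p up to 0.498).

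Cell cycle genes divided by phase. Of 45 genes of S phase, 24 rose, 1 fell and 20 did not pass, with a median of 0.10, and with the GC offset the counts were 28 higher and 1 lower. E2F2, a factor that drives entry into S phase, rose from 16.9 and 16.6 CPM to 41.3 and 40.2 CPM (log2 change 1.29 ± 0.056, adjusted p = 1.01e-10). TK1, thymidine kinase, rose from 72.3 and 72 CPM to 113 and 117 CPM (log2 change 0.68 ± 0.041, adjusted p = 1.90e-09). RRM2, a subunit of ribonucleotide reductase, rose from 266 and 264 CPM to 335 and 350.4 CPM, and CDT1, which loads the replicative helicase, from 93.1 and 91.7 CPM to 117 and 113 CPM. Against the list fell HELLS, with a log2 change of -0.28. The 4 genes with values, picked by smallest p, were higher in each treated library, and all but E2F2 by under 2-fold.

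Of 54 genes of G2 and mitosis, 3 rose, 32 fell and 19 did not pass, with a median of -0.15. Their median GC content was 42.2%, against 48.3% over all genes, and with the GC offset 6 were higher and 19 lower, with a median of -0.047. ANP32E, a histone chaperone, fell from 976 and 924 CPM to 602 and 614 CPM (log2 change -0.64 ± 0.040, adjusted p = 2.87e-09, -0.26 with the offset). ECT2, which starts cytokinesis, fell from 48.6 and 45.9 CPM to 30.7 and 31.4 CPM, CKS2, a subunit of cyclin-dependent kinases, from 144 CPM in both to 96.8 and 103 CPM, and DLGAP5, a spindle protein, from 80.9 and 80.4 CPM to 58.5 and 59.1 CPM. Against the list rose KIF2C, TACC3 and HJURP, with log2 changes of 0.23, 0.18 and 0.20.

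Inhibitors of cyclin-dependent kinases were higher where they passed, apart from CDKN3 (5 of 8 rose, 1 fell and 2 did not pass, 2 higher and 0 lower with the offset). CDKN1A, the p21 inhibitor, had 21 and 22 and, in the shallower treated libraries, 31 and 36 counts, or 0.531 and 0.351 CPM in the controls and 1.40 and 1.13 CPM at 112.7 pM (log2 change 1.55 ± 0.24, adjusted p = 6.17e-05). CDKN1C had 0.606 and 0.447 CPM in the controls and 1.04 and 1.23 CPM at 112.7 pM (log2 change 1.15 ± 0.29, adjusted p = 0.00388, 0.0592 without low DSA replicate 2). CDKN2C, at 39.9 and 39.7 CPM in the controls, rose by 0.19, and CDKN3, a phosphatase listed with them, fell by 0.22 on the log2 scale, a call lost without control replicate 2 and without either low DSA library (p up to 0.283). With the offset neither CDKN2C nor CDKN3 passed. Of the histone genes tied to replication, whose transcripts mostly lack a poly(A) tail, 10 of 33 rose, 0 fell and 23 did not pass, and H2BC21 rose from 5.23 and 4.90 CPM to 8.48 and 9.83 CPM.

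No gene of the DNA repair lists was called with a fold over 2, but such calls were rare among abundant genes of any kind. Of all genes with 500 to 5000 counts 0.532% were called higher and 0.0304% lower, so the lack of calls does not set these lists apart. The GC offset moved several of the counts by the adjusted p. Of 13 genes of translesion synthesis, which copies past damaged bases, none rose and 8 fell, with a median GC content of 39.3%, but with the GC offset 3 were higher and 1 lower. Of the DNA damage checkpoint 4 of 26 rose, 15 fell and 7 did not pass (4 higher and 6 lower with the offset), and of nucleotide excision repair 2 of 24 rose, 13 fell and 9 did not pass (6 higher and 6 lower). Homologous recombination had 6 of 22 higher and 4 lower (10 higher and 1 lower), mismatch repair 4 of 17 higher and 3 lower (6 higher and 1 lower), and the Fanconi pathway 4 of 14 higher and 5 lower (5 higher and 3 lower). Base excision repair had 7 of 21 higher and 4 lower (6 higher and 5 lower), and end joining 2 of 12 higher and 5 lower (0 higher and 5 lower).

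Single members gave the following values. RAD23B, which passes damaged DNA to excision repair, fell from 311 and 301 CPM to 211 and 206 CPM (log2 change -0.55 ± 0.034, adjusted p = 2.62e-09, -0.43 with the offset). LIG4, the ligase of end joining, fell from 99.8 and 93.6 CPM to 63.5 and 60.8 CPM (log2 change -0.64 ± 0.046, adjusted p = 1.20e-08, -0.40). DDB2, a damage sensor and p53 target, rose from 8.77 and 8.78 CPM to 16 and 18.1 CPM (log2 change 0.97 ± 0.072, adjusted p = 2.02e-08, 0.91). TIMELESS, which protects replication forks, rose from 106 CPM in both to 138 and 143 CPM (log2 change 0.41 ± 0.040, adjusted p = 3.90e-07, 0.35). BRCA1 rose by 0.31 ± 0.045, FEN1, the flap nuclease, by 0.25 ± 0.034 and PCNA, the sliding clamp, by 0.10 ± 0.035 (adjusted p = 0.037 by edgeR, lost without control replicate 1 or low DSA replicate 2, with p up to 0.248). POLB, RFC5, RFC2 and RPA2, the repair polymerase, 2 clamp loader subunits and a subunit of the single-strand binding protein, had log2 fold changes of 0.11, -0.075, -0.018 and 0.011 and did not pass (adjusted p of 0.388, 0.188, 0.789 and 0.854 by edgeR).

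Targets of p53 showed no common direction in this line without functional p53 (9 of 33 rose, 8 fell and 16 did not pass, 5 higher and 6 lower with the offset). DDB2 and CDKN1A rose, as given above. ZMAT3 fell from 21 and 20.3 CPM to 12.6 and 11.7 CPM (log2 change -0.77 ± 0.079, adjusted p = 5.66e-07 by edgeR), and TRIAP1 and CCNG1 fell by 0.39 and 0.48 on the log2 scale. GDF15, a secreted stress cytokine, had no count in either control and 2 and 2 counts at 112.7 pM, at or under the floor of 3 counts, so no fold is given. NUPR1, a stress-induced nuclear protein, had no count in the controls and 0 and 1 at 112.7 pM, where no change was detectable at this depth. Subunits of RNA polymerase II had log2 fold changes of -0.012 for POLR2E, -0.17 for POLR2C and -0.15 for POLR2K, of which those of POLR2C and POLR2K passed. The call of POLR2K was lost on leaving out any 1 of the 4 libraries and in 13 of 16 settings in all, and its value turned to 0.27 with the GC offset, and that of POLR2C was lost without control replicate 2 (adjusted p = 0.0692 by edgeR).

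Genes of cell death changed singly. BMF, which frees BAX and BAK from their inhibitors, rose from 10.5 and 10.2 CPM to 19.4 and 21.7 CPM (log2 change 0.998 ± 0.071, adjusted p = 1.20e-08), among 10 proapoptotic members of the BCL2 family of which 2 rose and 2 fell. BBC3 and BAD passed with log2 changes of 0.40 and -0.23, but that of BBC3 was lost on leaving out any 1 of the 4 libraries and with the GC offset (0.24, adjusted p = 0.231 by edgeR), and that of BAD without control replicate 2 or low DSA replicate 1 (adjusted p up to 0.441). BCL2 and MCL1, inhibitors of apoptosis, fell from 66.8 and 59.6 CPM to 54.9 and 48.6 CPM and from 854 and 892 CPM to 739 and 727 CPM, whereas BCL2A1 rose by 0.71 ± 0.15. Death receptors and ligands had 5 of 13 higher and none lower, led by TNFRSF10D (log2 change 0.51 ± 0.11, adjusted p = 0.0011) and TNFRSF10B (log2 change 0.30 ± 0.067, adjusted p = 0.00178). Of caspases and their regulators 3 of 14 rose and 3 fell (7 higher and 3 lower with the offset), and BIRC2 and XIAP, caspase inhibitors, fell, with log2 changes of -0.48 and -0.51.

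Genes for making ribosomes were lower. Of 43 genes of ribosome biogenesis none rose, 33 fell and 10 did not pass, with a median of -0.22, and with the GC offset 36 were lower and none higher. DDX21, a nucleolar helicase, fell from 802 and 771 CPM to 538 and 534 CPM (log2 change -0.55 ± 0.031, adjusted p = 8.10e-10). GAR1, a core protein of the H/ACA particles that guide pseudouridylation, fell from 102 and 105 CPM to 61.2 and 61.3 CPM (log2 change -0.76 ± 0.052, adjusted p = 7.63e-09). DDX18 fell from 314 and 305 CPM to 227 and 225 CPM and NPM1, nucleophosmin, by 0.38 on the log2 scale (-0.066 with the offset). Of the ribosomal proteins themselves 9 of 77 rose, 7 fell and 61 did not pass, with a median of -0.0012 (17 higher and 14 lower with the offset).

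Of the aminoacyl-tRNA synthetases 1 of 20 rose, 17 fell and 2 did not pass, with a median of -0.21 (2 higher and 13 lower with the offset). GARS1, YARS1, NARS1 and IARS1, which charge the tRNAs of glycine, tyrosine, asparagine and isoleucine, had log2 fold changes of -0.41, -0.32, -0.31 and -0.33. YARS1, for example, went from 320.1 and 318 CPM to 256 CPM in both (log2 change -0.32 ± 0.032, adjusted p = 5.01e-07). Against the list rose QARS1, with a log2 change of 0.21. Targets of the integrated stress response, which adapts amino acid supply when eIF2 is phosphorylated, were lower where they passed more often than higher (2 of 30 rose, 16 fell and 12 did not pass). ATF5 fell from 204 and 208 CPM to 106 and 107 CPM (log2 change -0.96 ± 0.046, adjusted p = 1.85e-10), SLC7A5, a transporter of large neutral amino acids, from 434 and 437 CPM to 321 and 313 CPM (log2 change -0.46 ± 0.033, adjusted p = 1.25e-08), and PSAT1 of serine synthesis from 156 CPM in both to 109.7 and 113 CPM. XPOT, the tRNA exporter, fell by 0.50 on the log2 scale. Each of these 4 genes, picked by smallest p, was lower in both treated libraries. Against the list rose CBS and ATF3, with log2 changes of 0.59 and 0.62.

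Chaperones of the endoplasmic reticulum and of heat shock were mostly lower (4 of 29 rose, 23 fell and 2 did not pass, 4 higher and 18 lower with the offset), with a median of -0.25. HSPA5, the main chaperone of the endoplasmic reticulum, fell from 1594 and 1588 CPM to 1129.6 and 1189 CPM (log2 change -0.46 ± 0.032, adjusted p = 1.10e-08). DNAJB11 and HSP90B1, its partners there, fell from 147 and 149 CPM to 108 CPM in both and from 1214 and 1212 CPM to 907 and 932 CPM. HSPB1, a small heat shock protein, went the other way, from 26 and 27.9 CPM to 42.7 and 44.4 CPM (log2 change 0.69 ± 0.053, adjusted p = 2.44e-08). Against the list rose HSPB1, BAG3, HSPA1A and CRELD2, with log2 changes of 0.69, 0.68, 0.76 and 0.18. Of the proteasome 2 of 31 rose and 11 fell, but 8 were higher and 6 lower with the offset, and PSMD14 turned from -0.27 to 0.26.

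Transcripts of the mitochondrial genome were mostly higher. Of 13 mRNAs, 11 rose and none fell, with a median of 0.59. MT-CYB of complex III stood at 1106 and 1248 CPM in the controls and 1848 and 1942 CPM at 112.7 pM (log2 change 0.69 ± 0.13, adjusted p = 2.75e-04), and MT-ND1, MT-CO2 and MT-CO3 of complexes I and IV rose by 0.72, 0.57 and 0.60. Reads of these genes can also match nuclear copies. The nuclear genes of the respiratory chain were mixed, with 23 of 69 higher, 16 lower and a median of 0.061 (28 higher and 8 lower with the offset). NDUFA5 of complex I fell from 102 and 97 CPM to 59.7 and 62 CPM (log2 change -0.70 ± 0.056, adjusted p = 4.19e-08, -0.25 with the offset), and ATP5PD of the ATP synthase rose from 103 CPM in both to 128 and 137 CPM. Glycolysis was mixed (10 of 21 rose and 5 fell, 7 higher and 7 lower with the offset, and the median turned from 0.11 to -0.020), with HK1, hexokinase 1, at 7.38 and 6.98 CPM in the controls and 13.9 and 14.3 CPM at 112.7 pM and HK2 at 178 and 171 CPM in the controls and 143 and 140.3 CPM at 112.7 pM. HK1 rose (log2 change 0.98 ± 0.083, adjusted p = 7.21e-08) and HK2 fell (log2 change -0.30 ± 0.040, adjusted p = 9.31e-06).

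Of 24 genes of cholesterol synthesis 3 rose and 11 fell, and with the GC offset none was higher and 16 were lower. SQLE, squalene epoxidase, fell from 65.7 and 61.2 CPM to 44.5 and 42.5 CPM (log2 change -0.55 ± 0.047, adjusted p = 8.64e-08), MSMO1 from 40.3 and 38.5 CPM to 26.3 and 23.4 CPM, and HMGCS1 by 0.44 on the log2 scale. Targets of NRF2, the regulator of antioxidant enzymes, had 10 of 19 higher and 3 lower. HMOX1, haem oxygenase 1, rose from 0.985 and 0.974 CPM to 3.29 and 3.75 CPM (log2 change 1.85 ± 0.19, adjusted p = 5.39e-07) and FTH1, ferritin heavy chain, whose reads may be shared with pseudogenes, from 220.3 and 234 CPM to 334 CPM in both. ABC transporters had 10 of 23 higher and 7 lower (7 higher and 5 lower with the offset), with ABCE1, a ribosome recycling factor, at -0.61 and ABCA7 at 0.95. In the MYC network 2 of 10 rose and 4 fell, and MYC itself fell from 2102 and 1935 CPM to 1711 and 1748 CPM (log2 change -0.22 ± 0.036, adjusted p = 8.93e-05).

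**Figure D4:**
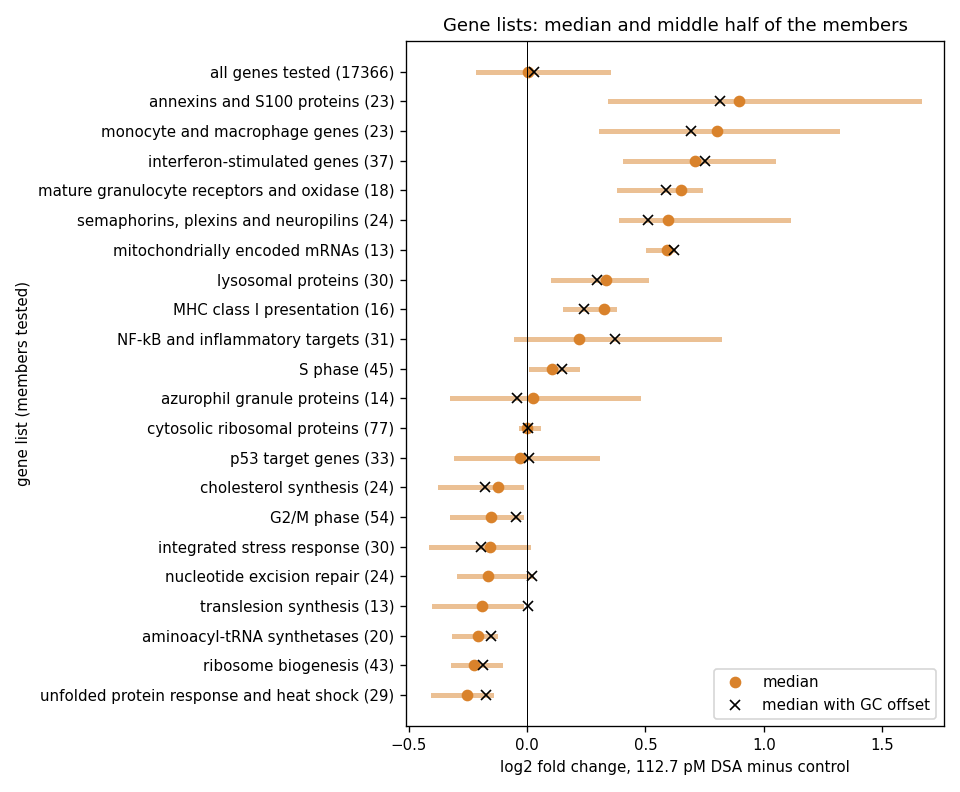
For each gene list, with the number of members tested in brackets, the circle gives the median log2 fold change at 112.7 pM DSA versus control, the bar their interquartile range, and the cross the median with the GC offset. Annexins, monocyte genes and interferon-stimulated genes sit between 0.71 and 0.89, ribosome biogenesis at -0.22, and the circles of translesion synthesis (-0.19) and nucleotide excision repair (-0.16) return to about 0 with the offset.

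Some markers of other lineages moved with the treatment, mostly at low levels apart from those of mast cells, basophils and eosinophils. As the filter took all 6 groups, scarce markers could be tested through a group where they are high, which favours rises among them. Of 8 T and NK cell markers 3 could be tested and all 3 rose, led by NKG7 (11.3 and 11.8 CPM in the controls and 26.4 and 29.6 CPM at 112.7 pM), while CD3G, CD8A and CD8B had no count in any of the 4 libraries, and the summed level was 14.0 to 14.6 CPM in the controls and 32.6 to 36.0 CPM at 112.7 pM. Of 5 B cell markers 2 of 3 tested rose (sums of 3.61 to 3.74 and 7.18 to 7.43 CPM), with MS4A1 at 0. ITGA2B alone rose among 8 erythroid and megakaryocyte markers (1.26 to 1.54 and 5.10 to 6.36 CPM), and HBB, HBA1, ALAS2 and GP9 were at 0. Epithelial markers had none of 2 tested past the threshold (0.623 to 1.01 and 1.29 to 1.40 CPM, KRT19 at 0), and PECAM1, which myeloid cells also make, was the single gene to rise among 8 fibroblast and endothelial markers (8.59 to 9.17 and 17.4 to 17.7 CPM), with COL1A2, DCN and CDH5 at 0. Of 9 mast cell, basophil and eosinophil markers HDC rose and MS4A2, PRG2 and CLC fell (1389 to 1424 and 1178 to 1255 CPM), with the highest adjusted p on leaving out 1 library at 0.0796 for HDC, 0.118 for PRG2 and 0.22 for CLC. Of the 6 Molm-14 markers FLT3 rose (8.67 and 7.49 CPM in the controls and 14.4 and 12.8 CPM at 112.7 pM). The part of other cells in the results above was not tested.

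The direct test of 500 against 112.7 pM, which shares the low libraries with the comparison above and is set beside it, called 1404 genes (8.08%) higher and 138 (0.795%) lower at the higher dose with a fold over 2, and 3841 (22.1%) and 4037 (23.2%) by the adjusted p alone. Several groups lay further from the controls at 500 pM. Interferon-stimulated genes had 33 higher and 0 lower of 37, annexins and S100 proteins 19 higher and 1 lower of 23, lysosomal genes 21 higher and 3 lower of 30, and ribosome biogenesis 0 higher and 43 lower of 43. ANXA2 was at 50.9 and 53.1 CPM at 500 pM, CLU at 15.8 and 17.1 CPM and CDKN1A at 18.1 and 18.8 CPM. The step from 112.7 to 500 pM was 2.54 ± 0.065 on the log2 scale for ANXA2, 2.38 ± 0.14 for CLU and 3.89 ± 0.12 for CDKN1A.

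For S phase genes and targets of the integrated stress response the list medians stepped against the change at 112.7 pM, but not every member did. S phase genes had 6 higher and 22 lower of 45 in the step to 500 pM. Their library medians relative to the control mean were 0.087 and 0.12 at 112.7 pM and -0.038 and -0.044 at 500 pM. Of the S phase genes with values above, E2F2, TK1 and RRM2 rose further, with steps of 0.77, 0.33 and 0.26. CDT1 did not pass in the step (0.014, adjusted p = 0.816 by edgeR). The library medians of targets of the integrated stress response turned from -0.22 and -0.14 to 0.22 and 0.29, with 16 higher and 7 lower of 30 in the step. Against the controls, 15 were higher and 12 lower at 500 pM. The summed level of the list was 3676 and 3699 CPM in the controls and 2866 and 2923 CPM at 112.7 pM. At 500 pM this sum was 2834 and 2788 CPM, still below the controls. Ribosomal proteins, whose median was near 0 at 112.7 pM, had 0 higher and 70 lower of 77 in the step. Azurophil granule proteins had 2 higher and 10 lower of 14. Their summed level went from 20848 and 21054 CPM in the controls to 16427 and 16955 CPM at 112.7 pM and 8369.97 and 8392 CPM at 500 pM. MPO made up most of these sums, and the median change of the list at 112.7 pM versus control was 0.025. MPO stood at 5409 and 5472 CPM at 500 pM. For CERCAM the step was 0.089 ± 0.17 (adjusted p = 0.721 by edgeR), and for SDC1 0.59 ± 0.24 (adjusted p = 0.0571 by edgeR). GDF15, hardly detected at 112.7 pM, had 25 and 40 counts at 500 pM, and NUPR1 had 16 and 26.

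**Figure D5:**
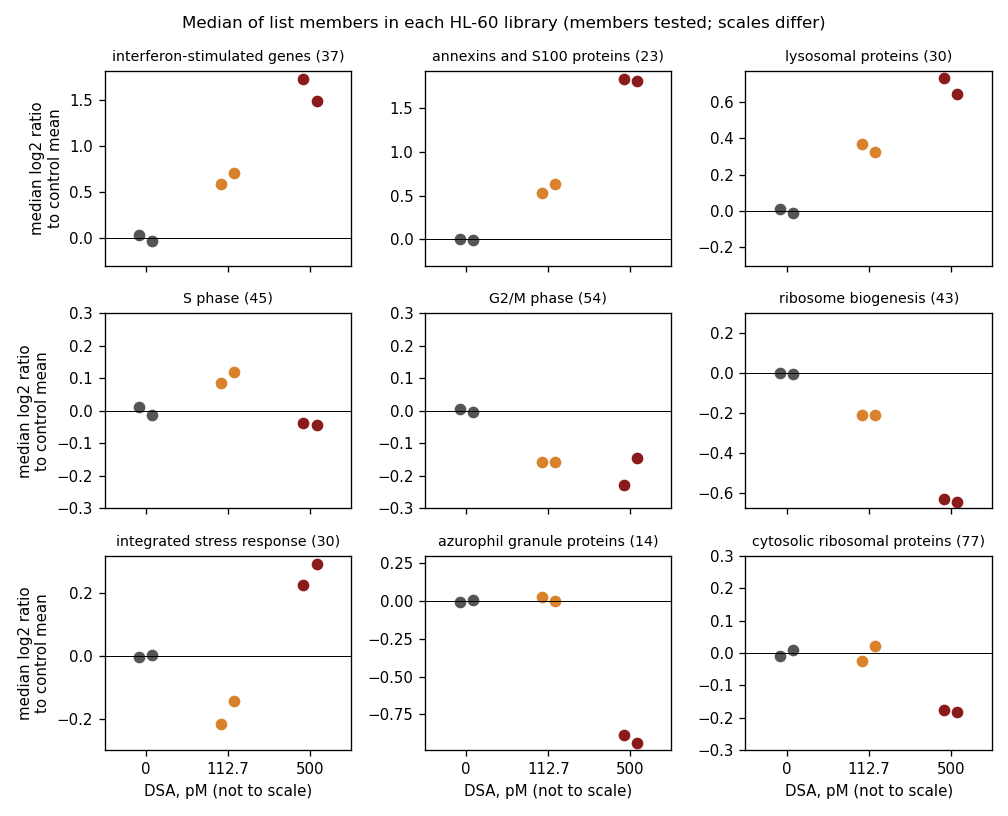
Each point is the median over the tested members of a gene list of the log2 ratio of 1 HL-60 library to the control mean, at 0, 112.7 and 500 pM DSA (dose positions not to scale, vertical scales differ between panels). The medians of interferon-stimulated genes step up at each dose. Those of S phase genes are highest at 112.7 pM (0.087 and 0.12), and those of integrated stress response targets are lowest there (-0.22 and -0.14).

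Molm-14 cells at 11.1 pM, the low dose of that line, had 2 genes called higher and 2 lower against their own controls with a fold over 2, and 141 and 36 by the adjusted p alone. The difference between the 2 changes was tested as an interaction. With a fold over 2 it was higher in HL-60 cells for 472 genes (2.72%) and lower for 68 (0.392%), and by the adjusted p for 2129 (12.3%) and 2587 (14.9%). Doses, media and serum differed between the lines as well, so what sets the difference cannot be told apart. The interaction counts were 22 higher and 1 lower of 37 for interferon-stimulated genes, 16 higher and 0 lower of 23 for annexins and S100 proteins, 26 higher and 1 lower of 45 for S phase and 0 higher and 26 lower of 43 for ribosome biogenesis. Mitochondrially encoded mRNAs had none in either direction by the adjusted p.

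The largest interactions on the higher side were those of 2 genes without a symbol, RASD1 and LGALS9C. The lncRNA ENSG00000235288 (chr3:42785087-42852428) had 0 counts in both controls of HL-60 and 157 and 135 at 112.7 pM, at least 91.7-fold higher against a floor of 3 counts per library. ENSG00000285245, a coding entry (chr9:133098121-133163914), had no count in the controls and 0 and 32 at 112.7 pM, so that its value rests on a single treated library. RASD1, a small GTPase induced by glucocorticoids, had no count in the controls and 4 and 4 at 112.7 pM, at least 2.48-fold higher, while Molm-14 cells stayed between 2.71 and 3.09 CPM. LGALS9C, a copy of the galectin 9 gene between whose loci reads can be divided, rose from 1.92 and 1.87 CPM to 5.46 and 5.64 CPM in HL-60 cells and was at most 0.0607 CPM in Molm-14 cells.

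On the lower side stood RGPD5 and SMIM11, whose near-identical copies were named above, PLCXD2 and PKIB. PKIB, an inhibitor of protein kinase A, had 15 and 18 counts in controls of HL-60 and 1 and 3 at 112.7 pM (log2 change -2.08 ± 0.56, adjusted p = 0.00595, 0.055 without low DSA replicate 1), and its interaction was -2.11 ± 0.59 (adjusted p = 0.0122 by edgeR). PLCXD2 did not pass in HL-60 cells (log2 change 0.17 ± 0.18, adjusted p = 0.482), and the Molm-14 libraries were all at or under 0.337 CPM. Of the 12 largest increases, ANXA2, PRR5L, ITGA2B, CPXM1, CERCAM, CCNA1, GAS2L1 and IL17RE also differed between the lines by the interaction with a fold over 2. Molm-14 controls held ANXA2 at 66 and 64.2 CPM, CCNA1 at 17 and 16.6 CPM and PRR5L at 10.6 and 11.6 CPM. GAS2L1 was at 9.40 and 8.52 CPM in them and CERCAM at 3.85 and 4.35 CPM, all above the HL-60 controls. CPXM1 and ITGA2B were below the HL-60 controls there, and IL17RE overlapped them. CLU, FFAR2, SDC1 and SIGLEC17P did not pass the interaction. Their Molm-14 libraries were all at or under 0.337 CPM, and none of their Molm-14 changes passed (1.21 for CLU and 0.73 for FFAR2). A response shared by the lines cannot be read from this.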

How the data were processed

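RNA of HL-60 and Molm-14 cells was sequenced after 36 h at 0, low or high DSA, with 2 libraries in each of 6 groups. Per the labels, the authors trimmed reads with Trim Galore 0.60, aligned them to hg38 with STAR 2.7 and obtained expected counts per gene with RSEM 1.31, and their methods name GENCODE release 31. The TPM values that the authors deposited beside them gave no value in the text. Expected counts were rounded to whole numbers, since RSEM divides reads shared by similar genes, and 45 pseudoautosomal copies on Y were added to those on X. Gene types and symbols came from GENCODE release 44, which held 60261 of 60709 identifiers. Groups were taken from the labels.

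Genes that passed filterByExpr (17366) were tested with the quasi-likelihood test of edgeR 4.0.16 in R 4.3.3 with TMM factors, over all 12 libraries with 1 mean per group, and Benjamini-Hochberg adjustment over all of them. The contrasts were low against control, 500 against 112.7 pM, and the HL-60 change minus that of Molm-14 at the low doses. A gene was called where the adjusted p was below 0.05 and the change exceeded 2-fold, and members of gene lists were read by the adjusted p alone. Totals of 21177424 to 63927449 counts per library set the precision, and a floor of 3 counts per library was used where a group had none. These floors cover counting error only. Scripts were tested on simulated data.

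The text names the 12 largest called increases and decreases with a symbol, a mean of at least 50 counts and libraries that did not overlap, 5 non-coding genes in each direction by the same rule, the 4 genes of lowest p in each list, genes the study names for HL-60 cells, and the 4 largest interactions in each direction. Members and lists were chosen with earlier results of these data known. The alternatives were limma-voom (limma 3.58.1), DESeq2 1.42.0, other scalings and filters, fewer libraries, thinned counts and each replicate left out. A GC offset was added after the data were seen. Some items among these are not reported here.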

Additional observations from a re-analysis of the deposited data

Results flagged for a closer look

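Differences between the low-dose changes of the lines were past the threshold of the interaction in edgeR's model, with a fold over 2, for 540 genes. Doses, media and serum differed between the lines, and their part in these differences was not tested. Each value that follows is the HL-60 change at 112.7 pM minus the Molm-14 change at 11.1 pM on the log2 scale. Among the largest HL-60 increases it was 2.53 for ANXA2, 2.13 for PRR5L, 1.82 for ITGA2B, 1.81 for CPXM1, 1.62 for CERCAM, 2.08 for CCNA1, 1.98 for GAS2L1 and 1.95 for IL17RE. Among the largest decreases it was -7.79 for RGPD5, -2.09 for SMIM11, -1.91 for MS4A2 and -1.15 for GMFB, of which RGPD5 and SMIM11 have near-identical copies.

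Beside RGPD5 and SMIM11, the largest differences among genes with a mean of 50 or more counts were 10 for the lncRNA ENSG00000235288, 8.41 for ENSG00000285245, 5.51 for RASD1 and 5.32 for LGALS9C on the higher side, and -2.2 for PLCXD2 and -2.11 for PKIB on the lower. Fitted values of the first 3 rest on groups without a count and are no bounds. Those of LGALS9C, PLCXD2, RGPD5, MS4A2 and ITGA2B take in Molm-14 changes measured near 0 CPM, so their size is uncertain. For MS4A2 the Molm-14 libraries were at 0.0858 to 0.207 CPM.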

How the results depend on the processing

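The 878 genes called higher became 335 where the mean count had to reach 50 and 3426 with no fold threshold. The 74 called lower became 15 by DESeq2, 120 with no filter on low counts, 12 where it had to reach 50, 39 among protein-coding genes alone and 3865 with no fold threshold. Leaving out 1 library gave 695 to 786 higher and 46 to 68 lower, the fewest lower without control replicate 1. The 1542 genes called between 500 and 112.7 pM became 1010 by DESeq2, 489 with that minimum and 7878 with no fold threshold. The 540 interactions became 296 and 4716 under the last pair of settings. The other settings run moved these counts by less than 1.5 times, and the cause of the moves was not tested beyond fewer or more genes being eligible.

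The replicate numbers did not pair the libraries (correlations of deviations of 0.045, -0.0024 and -0.00055), and a fit with the replicate number as a block in the 6 HL-60 libraries called 818 genes higher and 50 lower.

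With the GC offset, 5 of the 242 named genes turned, namely PMAIP1 (0.006), RPL5 (0.194), PSMA3 (0.032), PSMD14 (0.257) and POLR2K (0.265) and 18 more no longer passed. Calls of named genes were also lost by DESeq2 (14) and, with 1 library left out, without control replicate 1 (8), control replicate 2 (18), low DSA replicate 1 (17) and low DSA replicate 2 (15). ENSG00000285245 was at 0 without low DSA replicate 2 and at 8.252 without replicate 1. With counts thinned to the smallest library, 768 genes were higher and 55 lower. Leaving a library out leaves a lone sample assumed to vary like the other groups.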
